A study of Rattus norvegicus with 12 samples.

Results

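Entpd5 and Asph encode enzymes of the endoplasmic reticulum, and their messenger RNA was followed on 7 probe sets of a rat expression array, 3 for Entpd5 and 4 for Asph, of 31099 probe sets in all (2 of 14217 named genes). A probe set is a group of short array probes that together report the level of a transcript. The members are all probe sets whose single gene symbol in the platform annotation is Entpd5 (gene ID 314312) or Asph (gene ID 312981). Both genes were chosen because earlier results of these data had them higher with acrylamide in the 3 tissues, so every acrylamide difference of a member is given as a description with no test. That description held on all 12 arrays for a single probe set of each gene, 1372774_at of Entpd5 and 1393345_at of Asph, and another Asph probe set moved the opposite way.

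ENTPD5 hydrolyses the UDP that is released when misfolded glycoproteins are tagged again with glucose in the endoplasmic reticulum, and the resulting UMP leaves in exchange for fresh UDP sugars. It thereby serves the folding of glycoproteins by the lectin chaperones calnexin and calreticulin. ASPH, aspartate beta-hydroxylase, is an oxygen- and 2-oxoglutarate-dependent enzyme that hydroxylates aspartate and asparagine residues in the EGF-like domains of proteins such as Notch receptors and their ligands. The Asph gene also gives rise, through other promoters and splicing, to junctin and junctate, shorter proteins without the catalytic domain that take part in calcium storage and release. In the RefSeq gene table of assembly GRCr8, Entpd5 has 8 transcripts and Asph has 16, and which of them each probe set matches was not analysed here.

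The rats were young male Wistar rats given acrylamide by gavage at 30 mg/kg per day for 21 days, or saline, which another label calls solvent, from an age given as 25 days or as 3 weeks. The series text has the tissues taken once these 21 days were over, whereas the sample labels place collection 21 days after treatment. Acrylamide is a reactive vinyl monomer known to damage nerve endings and long axons. Cerebellum, spinal cord and sciatic nerve (right and left) were each measured on 2 arrays from saline rats and 2 from acrylamide rats, with RNA of 2 rats pooled on every array. The groups have no transgene or other allele, and the labels do not state whether the 3 tissues of a replicate number came from the same rats. Values are signals in arbitrary units on a linear scale, and log2 differences are acrylamide minus saline on log2(signal + 16), with the standard error (SE) of a limma model over all 12 arrays.

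Array medians ran from 162 to 199, and precision is limited by having 2 arrays in a group. Defining markers were present in each labelled tissue. The granule neuron gene Gabra6 was at 12267 or more in the cerebellum and at 10.9 or less in the cord, but reached 2537 in the nerve. The cholinergic gene Chat was at 485 or more in the cord and at 25.4 or less elsewhere, and the Schwann cell gene Prx was at 18215 or more in the nerve, 3626 or more in the cord and 70.5 or less in the cerebellum. Markers of other tissues were uneven over some arrays, and their source was not tested. Skeletal muscle markers, 14 of 15 on the arrays, summed to 55811 on cord saline replicate 1 against 5156 to 6445 on the other cord arrays, and to 29069 on nerve acrylamide replicate 2 against 3914 to 10020.5 on the other nerve arrays. Cerebellar neuron markers, 9 of 10 on the arrays, summed to 12084 and 15699.6 on the replicate 1 arrays of the saline and acrylamide nerve and to 1168 and 1829 on the replicate 2 arrays.

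Entpd5 was higher in acrylamide rats on all 3 probe sets in the spinal cord, with log2 differences of 0.59 to 0.66. On probe set 1372774_at, which had the smallest standard error of the 3, the cord signals were 911 and 958 in saline and 1539 and 1429.5 in acrylamide arrays. In the sciatic nerve they were 789 and 768 in saline and 1042 and 988 in acrylamide arrays. In the cerebellum they were 436 and 413 in saline and 464 and 496 in acrylamide arrays. Both acrylamide arrays thus lay above both saline arrays in each tissue, with a wide gap in the cord and a gap of 436 to 464 in the cerebellum. The log2 differences were 0.66 ± 0.09 (SE) in the cord, 0.38 ± 0.09 in the nerve and 0.17 ± 0.09 in the cerebellum.

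Entpd5 probe set 1382434_at had cord signals of 917 and 1153 in saline and 1521 and 1676 in acrylamide arrays. Its cerebellar signals were 309.9 and 366 in saline and 456 and 494 in acrylamide arrays. In the nerve the groups overlapped, with 776 and 1047.5 in saline and 1019.7 and 1155 in acrylamide arrays, so that saline replicate 2 stood above acrylamide replicate 1. Replicate 2 was the higher array in each of its 6 groups. The log2 differences were 0.63 ± 0.17 (SE) in the cord, 0.48 ± 0.17 in the cerebellum and 0.26 ± 0.17 in the nerve. The nerve value was 0.05 without saline replicate 1 and 0.48 without saline replicate 2. With cord saline replicate 1, nerve saline replicate 1 and nerve acrylamide replicate 2 left out together, the arrays with the most of the muscle actin gene Acta1, it was -0.04, whereas 1372774_at stood at 0.43 in the nerve.

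The remaining Entpd5 probe set, 1382544_at, had cord signals of 272 and 244 in saline and 343 and 452 in acrylamide arrays. In the nerve it had 224 and 210.02 in saline and 236 and 335 in acrylamide arrays. Its cerebellar groups overlapped, with 179 and 205 in saline and 192 and 199.9 in acrylamide arrays. The log2 differences were 0.59 ± 0.19 (SE), 0.36 ± 0.19 and 0.03 ± 0.19 in that order of tissues. The nerve value was 0.12 without acrylamide replicate 2 and 0.59 without acrylamide replicate 1. The 3 Entpd5 probe sets had positive values in all tissues and nearly the same size in the cord. They differed most in the cerebellum, where their values ran from 0.03 to 0.48. The sign was not settled for 1382544_at in the cerebellum, where its value ran from -0.058 to 0.124 with an array left out. Nor was it settled for 1382434_at in the nerve, which stood at -0.04 without the 3 arrays with the most Acta1.

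**Figure D1:**
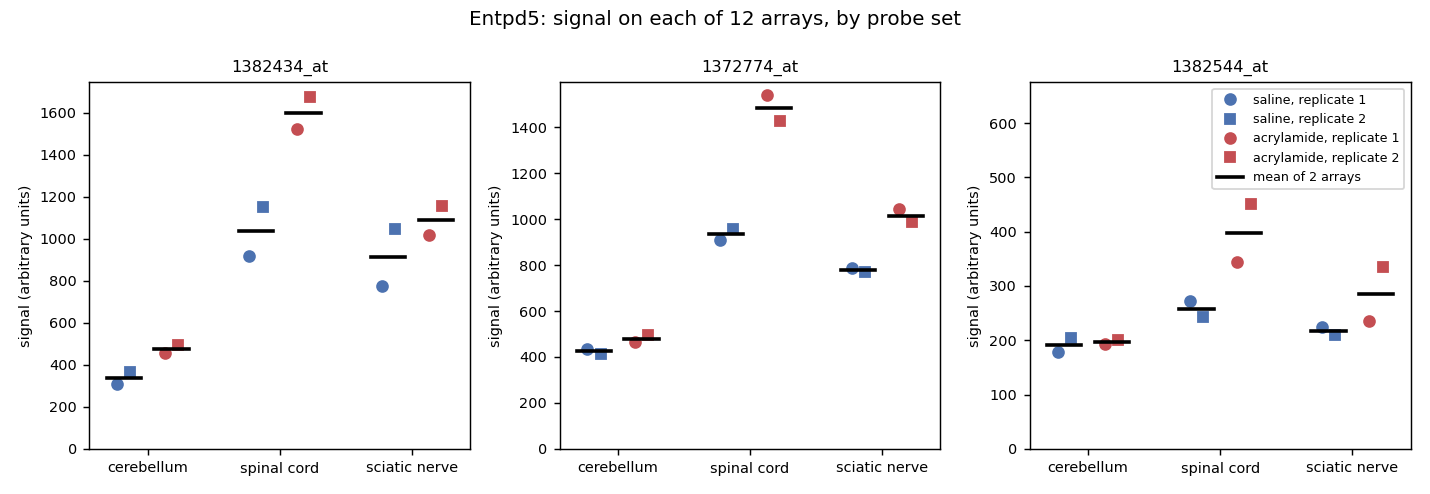
Signal of the 3 Entpd5 probe sets (vertical axes, arbitrary units from 0) on the 12 arrays, by tissue (horizontal axes), with saline in blue, acrylamide in red, replicate 1 as circles, replicate 2 as squares and the mean of 2 arrays as black bars. In the spinal cord the acrylamide arrays stand above the saline arrays on each probe set, while in the cerebellum 1382544_at and in the sciatic nerve 1382434_at overlap between groups.

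In a bulk sample, a change in the number of cells of a type and a change in RNA per cell cannot be told apart. Beside the Entpd5 differences, 9 microglia and macrophage markers summed to 5120 to 5315 in saline and 7163 to 7512 in acrylamide cord, and to 1968 to 2064 and 2612 to 2814 in the cerebellum. Of these 9 genes, 7 in the cord had both acrylamide arrays above both saline arrays and 0 below, and 6 in the cerebellum lay above and 1 below. Of all tested probe sets, 17.7% lay above and 15.9% below in the cord, and 17.1% and 16.6% in the cerebellum. Markers of Schwann cells (7 of 10 on the arrays) summed to 62547 to 65215 in saline and 54833 to 55198 in acrylamide cord, with 5 of 7 genes below. Those of fibroblasts and meninges (8 of 8) summed to 27622 to 29652 and 19528 to 24015, with 6 of 8 below. Astrocyte markers (7 of 7) summed to 50363 to 50999 and 53958 to 56242 in the cord, with 4 genes above and 1 below. The cord sums of oligodendrocyte markers (7 of 8) overlapped, at 84615.5 to 85904 and 82806 to 92324, but 4 genes lay above and 0 below. Those of skeletal muscle and fat markers also overlapped in the cord. Of the muscle genes 0 lay above and 9 below, and of the fat genes 2 lay above and 4 below. In the cerebellum the astrocyte sum was 45730 to 46157.5 in saline and 47605 to 48371 in acrylamide arrays, but 1 of the 7 genes lay above and 2 lay below. The gene above was Gfap, a filament protein of astrocytes, at 6307 and 7239 in saline and 9836 and 9468 in acrylamide arrays. The cerebellar sum of fibroblast markers was 3655 to 4867 and then 4999 to 5101, with 4 genes above and 0 below. Cerebellar sums were lower for skeletal muscle (5247 to 6264, then 4109 to 4897, 2 genes above and 4 below) and cord neurons (309 to 406, then 245 to 288, 1 above and 2 below). The sum of fat markers was also lower (1085 to 1098, then 981 to 1064), although 2 of its genes lay above and 1 below. Most genes of these 3 lists were dim there. On a cerebellar array, 2 to 3 muscle, 2 fat and 0 to 1 cord neuron genes exceeded 112, the signal a tissue mean had to exceed for testing. In the cord 3 to 4 fat genes did so, and 4 to 5 muscle genes on arrays other than saline replicate 1. The shares over all tested probe sets leave out such dim signals. In the nerve, where 13.3% of all tested probe sets lay above and 12.9% below, cord neuron markers summed to 1874 to 1943 and then 1603 to 1725, with 3 genes below. Of these 9 genes, 2 to 3 exceeded 112 on a nerve array. The nerve sums of oligodendrocyte markers (39619.8 to 45034, then 36190.1 to 39597.8) came close to overlapping, and 0 of 7 genes lay above or below. The nerve sums of microglia, Schwann cell, fibroblast, astrocyte and fat markers overlapped between saline and acrylamide arrays. Fat and microglia markers were uneven there, at 31951.6 and 7159 on saline replicate 1. On the other nerve arrays they summed to 6993 to 12141 and 2118 to 4197. The part of these markers in the Entpd5 and Asph values was not tested.

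Asph was higher in acrylamide rats in all 3 tissues on probe set 1393345_at, and lower in all 3 tissues on probe set 1382060_at. On 1393345_at the cerebellar signals were 1943 and 2047 in saline and 2611 and 2692 in acrylamide arrays. The cord signals were 923 and 964 in saline and 1322 and 1318 in acrylamide arrays. The nerve signals were 1643 and 1706 in saline and 2155 and 1849 in acrylamide arrays. Both acrylamide arrays lay above both saline arrays in each tissue, most closely in the nerve. The log2 differences were 0.41 ± 0.09 (SE) in the cerebellum, 0.48 ± 0.09 in the cord and 0.25 ± 0.09 in the nerve, or 1.33-, 1.39- and 1.19-fold. The nerve value was 0.14 without acrylamide replicate 1, 0.36 without acrylamide replicate 2 and 0.33 without the 3 arrays with the most Acta1.

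On 1382060_at the cerebellar signals were 924 and 996 in saline and 784 and 757 in acrylamide arrays. The cord signals were 583 and 557 in saline and 515 and 472 in acrylamide arrays. The nerve signals were 1576 and 1828 in saline and 1393 and 1270.04 in acrylamide arrays. Both acrylamide arrays lay below both saline arrays in every tissue. The log2 differences were -0.31 ± 0.10 (SE) in the cerebellum, -0.20 ± 0.10 in the cord and -0.35 ± 0.10 in the nerve. Neither probe set stood apart on cord saline replicate 1, the array with the most muscle markers.

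The log2 ratio of 1393345_at to 1382060_at within an array leaves out whatever scales both alike, such as the scaling of the array. With acrylamide this ratio was higher by 0.72 in the cerebellum, 0.68 in the cord and 0.60 in the nerve, and its saline and acrylamide arrays did not overlap in any tissue. The arrays of a group lay within 0.08 of their group mean. Among 3993 pairs of probe sets of the same gene that passed the filter in all 3 tissues, 49 (1.23%) had a ratio that shifted the same way without overlap in each tissue. For 2 of these 3993 pairs (0.0501%), Asph included, the probe sets themselves lay above in all 3 tissues and below in all 3. Since these members were chosen on the same contrast, nothing is read from that share.

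**Figure D2:**
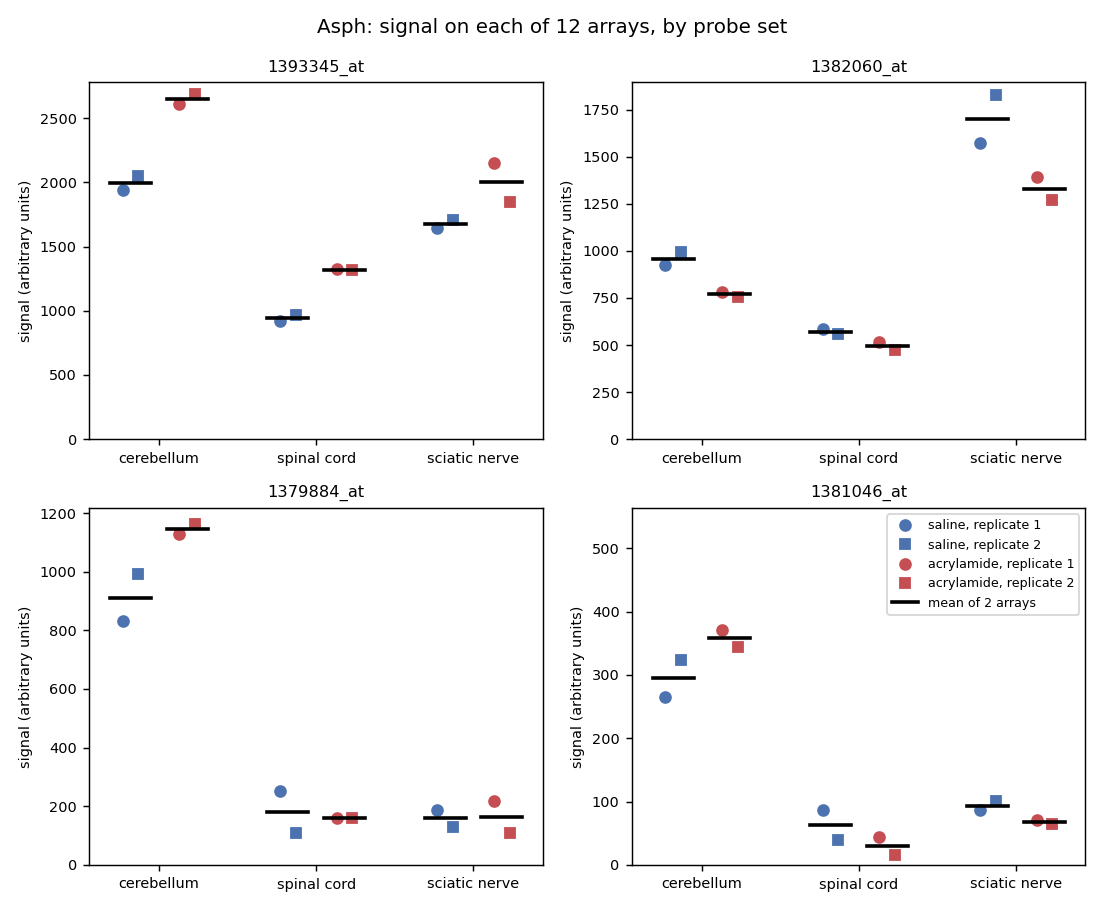
Signal of the 4 Asph probe sets (vertical axes, arbitrary units from 0) on the 12 arrays, by tissue (horizontal axes), with saline in blue, acrylamide in red, replicate 1 as circles, replicate 2 as squares and the mean of 2 arrays as black bars. Acrylamide arrays stand above saline arrays in all tissues on 1393345_at and below them in all tissues on 1382060_at, and the other probe sets are bright in the cerebellum only.

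The other Asph probe sets, 1379884_at and 1381046_at, had their high signals in the cerebellum. There 1379884_at had 833 and 991 in saline and 1130.3 and 1164 in acrylamide arrays, and 1381046_at had 265 and 324 in saline and 371 and 344 in acrylamide arrays. Both acrylamide arrays lay above both saline arrays on each, with log2 differences of 0.33 ± 0.37 (SE) and 0.27 ± 0.35. The standard errors exceed these differences; the model shares a single spread per probe set over the tissues. In the cerebellum 3 of 4 Asph probe sets thus had both acrylamide arrays above both saline arrays and 1 had both below, beside 17.1% and 16.6% of all tested probe sets.

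In the cord, 1379884_at had signals of 253 and 108 in saline and 161 and 160.2 in acrylamide arrays, and in the nerve 189 and 128 in saline and 217 and 109.9 in acrylamide arrays. The groups overlapped in both tissues, and the higher array of a group was replicate 1 in each of these 4 groups. Cord saline replicate 1 was also the array with the highest sum of muscle markers, and both nerve replicate 1 arrays had the higher sums of cerebellar neuron markers. In the nerve, the highest sum of muscle markers (29069) was on acrylamide replicate 2, which had the lowest nerve signal on 1379884_at. The part of these markers in the 1379884_at signals was not tested. The log2 differences of -0.05 ± 0.37 (SE) in the cord and -0.004 ± 0.37 in the nerve turned to 0.51 without cord saline replicate 1 and to 0.44 without nerve acrylamide replicate 2. They stood at -0.60 without cord saline replicate 2 and at -0.45 without nerve acrylamide replicate 1. Without the 3 arrays with the most Acta1 they were 0.51 in the cord and 0.69 in the nerve. That nerve value sets saline replicate 2 (cerebellar neuron sum 1168) against acrylamide replicate 1 (15699.6). Acrylamide and these markers cannot be told apart in it.

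Probe set 1381046_at lay below the filter's signal of 112 in the cord and nerve, where its signals were 86.9 and 40.02 in saline and 43.2 and 14.9 in acrylamide cord, and 85.9 and 100.6 in saline and 71.6 and 65.1 in acrylamide nerve. The cord groups overlapped and the acrylamide nerve arrays lay below the saline arrays. Values this low are close to the dim end of the arrays and carry no fold change here.

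**Figure D3:**
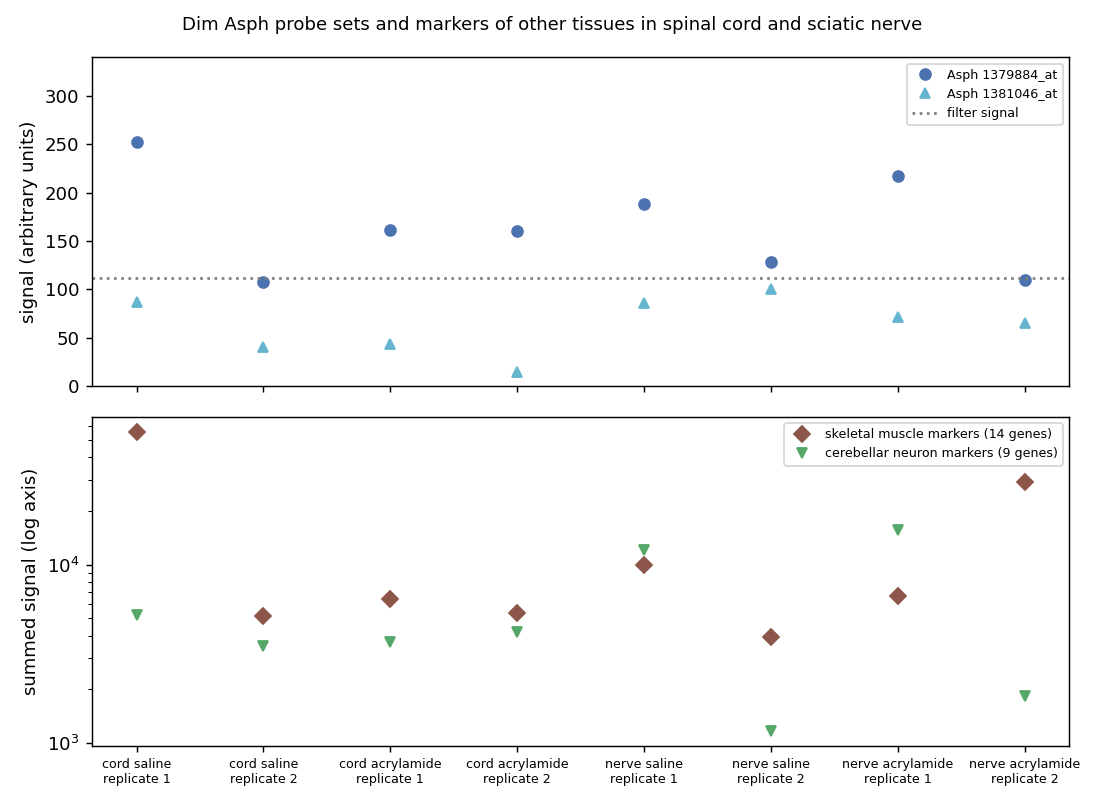
Signal of Asph probe sets 1379884_at and 1381046_at on the 8 arrays of the spinal cord and sciatic nerve (upper panel, arbitrary units, filter signal dotted) above the summed signal of skeletal muscle and cerebellar neuron markers on the same arrays (lower panel, log axis). On 1379884_at, cord saline replicate 1 and the nerve replicate 1 arrays are the highest of their groups, and the marker sums are uneven over the same arrays.

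Counted over both genes, 5 of 7 probe sets had both acrylamide arrays above both saline arrays in the cerebellum and 1 below, where 17.1% and 16.6% of all tested probe sets did so. In the cord 4 of the 6 that passed the filter lay above and 1 below, beside 17.7% and 15.9% of all tested probe sets. In the nerve 3 of 6 lay above and 1 below, beside 13.3% and 12.9%, and 1381046_at, under the filter there, lay below. Above in all 3 tissues were Entpd5 1372774_at and Asph 1393345_at, as were 0.747% of 15807 probe sets, and below in all 3 was Asph 1382060_at, as were 0.898%. These shares stand beside counts on the contrast that chose the genes, and nothing is read from them. All 7 probe sets passed the filter in the cerebellum and 6 of 7 in the cord and the nerve.

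Averaged over the 3 tissues, the log2 differences of Entpd5 were 0.46 ± 0.10 (SE) on 1382434_at, 0.40 ± 0.05 on 1372774_at and 0.32 ± 0.11 on 1382544_at. Those of Asph were 0.38 ± 0.05 on 1393345_at, -0.29 ± 0.06 on 1382060_at and 0.09 ± 0.21 on 1379884_at. These standard errors treat the tissues as separate pools of rats and could be too small if the tissues came from the same rats. The average of 1379884_at ran from -0.09 to 0.28 with an array left out and was 0.51 without the 3 arrays with the most Acta1. The nerve arrays left in that setting also differ in cerebellar neuron markers. The median over 15807 probe sets was 0.002. Entpd5 1372774_at was larger in the cord than in the cerebellum by 0.49 ± 0.12 (SE), and Asph 1393345_at by 0.07 ± 0.12, differences that were not tested.

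**Figure D4:**
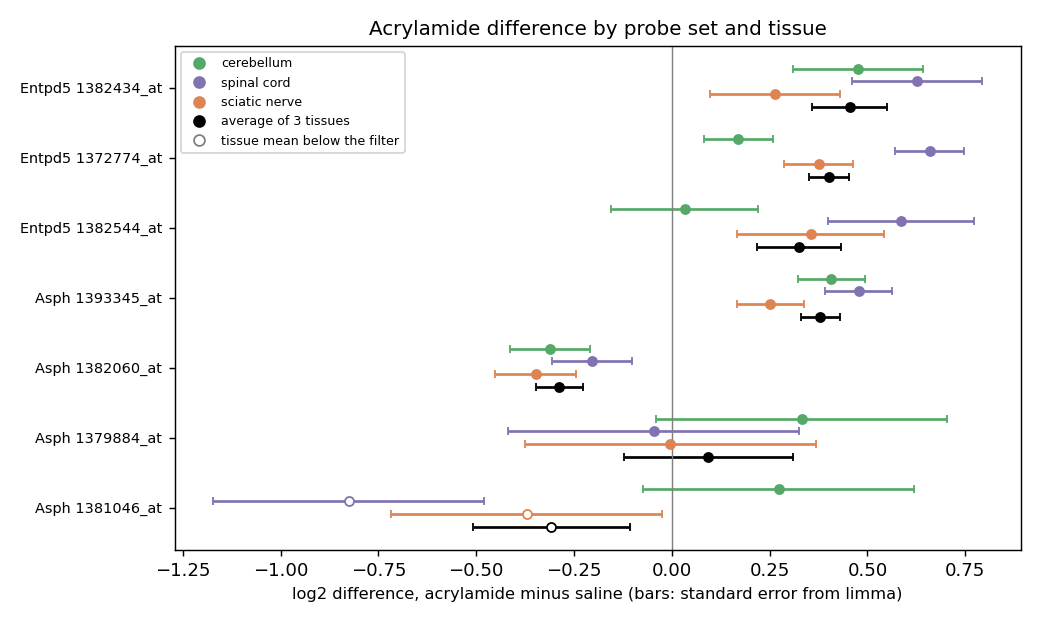
Log2 difference, acrylamide minus saline (horizontal axis), of each Entpd5 and Asph probe set (rows) in the cerebellum, spinal cord, sciatic nerve and on average, with the standard error from limma as bars and open points where the tissue mean lay below the filter. The points of the 3 Entpd5 probe sets and Asph 1393345_at lie to the right of 0 in each tissue, and Asph 1382060_at lies to the left in each. The bar of Entpd5 1382544_at crosses 0 in the cerebellum.

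The levels of both genes between tissues were not used to choose them and were tested in saline rats. Entpd5 was higher in the spinal cord and sciatic nerve than in the cerebellum. On 1382434_at the saline signals were 1035 ± 166 (SD, n = 2) in the cord, 912 ± 192 in the nerve and 338 ± 39.7 in the cerebellum. The cord exceeded the cerebellum 2.96-fold (log2 difference 1.57 ± 0.17, limma Benjamini-Hochberg adjusted p = 8.03e-05) and the nerve exceeded it 2.60-fold (1.38 ± 0.17, limma adjusted p = 7.08e-05). On 1372774_at the folds were 2.16 (1.11 ± 0.09, limma adjusted p = 1.69e-05) and 1.80 (0.85 ± 0.09, limma adjusted p = 2.8e-05). Probe set 1382544_at had the same order of means, 258 ± 19.8, 217 ± 9.6 and 192 ± 18.5, but did not pass against the cerebellum in the cord (0.40 ± 0.19, limma adjusted p = 0.101) or the nerve (0.17 ± 0.19, 0.443). It passed in both, at 0.68 in the cord and 0.33 in the nerve, when the acrylamide arrays also entered the tissue contrasts. Those arrays carry the contrast that chose the genes, so this change of call is not read as a test.

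Whether Entpd5 differed between cord and nerve, neighbours in that order, depended on the arrays and the scaling used. On 1382434_at the nerve differed from the cord by -0.19 ± 0.17 (limma adjusted p = 0.361), and on 1382544_at by -0.23 ± 0.19 (0.316). On 1372774_at the difference of -0.26 ± 0.09 passed (limma adjusted p = 0.0314), but the call ended with median scaling (-0.06, adjusted p = 0.609) and without any of the 4 saline arrays of these tissues (adjusted p from 0.0586 to 0.143). With the acrylamide arrays also in the contrast, the differences were -0.37 on 1382434_at, -0.40 on 1372774_at and -0.35 on 1382544_at. Those arrays carry the contrast that chose the genes, so these values are no test of the tissue level.

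The Asph probe sets had different orders of tissues. On 1393345_at the saline signals were 1995 ± 73.6 (SD, n = 2) in the cerebellum, 1674 ± 44.9 in the nerve and 944 ± 29 in the cord. The cord was lower than the cerebellum (log2 difference -1.07 ± 0.09, limma adjusted p = 1.85e-05) and the nerve was higher than the cord (0.82 ± 0.09, limma adjusted p = 5.86e-05). The nerve was lower than the cerebellum by a smaller step (-0.25 ± 0.09, limma adjusted p = 0.0266), which did not pass with median scaling (-0.04, 0.765), with no intensity trend (0.0518), without cerebellum saline replicate 2 (0.124) or without nerve saline replicate 1 (0.0917). On 1382060_at the nerve was highest, at 1702 ± 178, above the cerebellum at 960 ± 50.7 (0.81 ± 0.10, limma adjusted p = 9.6e-05) and the cord at 570.03 ± 19 (1.55 ± 0.10, limma adjusted p = 6.03e-06), and the cord was also lower than the cerebellum (-0.73 ± 0.10, 0.000383).

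The 2 remaining Asph probe sets were highest in the cerebellum. On 1379884_at the saline signals were 912 ± 112 (SD, n = 2) in the cerebellum, 180.4 ± 102 in the cord and 158 ± 42.6 in the nerve, and the cerebellum exceeded the cord 5.06-fold (limma adjusted p = 0.000786) and the nerve 5.38-fold (0.00032). Nerve and cord did not differ beyond their spread (-0.09 ± 0.37, limma adjusted p = 0.855). On 1381046_at the cerebellum was at 294 ± 41.6, the nerve at 93.3 ± 10.4 and the cord at 63.4 ± 33.1, with limma adjusted p = 0.00361 against the nerve and 0.00116 against the cord, and both dimmer tissues lay below the filter. Over both genes, 6 of 7 probe sets passed between cord and cerebellum, 3 of 6 between nerve and cord and 6 of 7 between nerve and cerebellum, beside 53.1%, 57.8% and 69.6% of all tested probe sets. By direction, 2 were higher and 4 lower in the cord than in the cerebellum (26% and 27.1% of all tested), 2 higher and 1 lower in the nerve than in the cord (29.1% and 28.7%), and 3 higher and 3 lower in the nerve than in the cerebellum (30.6% and 39%).

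To name genes with the most similar pattern, each probe set with a single symbol was compared with the Entpd5 and the Asph probe set of the highest mean signal by the root mean square distance of log2 values over 12 arrays, among 12188 probe sets above the filter in all tissues. For the levels across tissues, after centring each probe set on its mean, the nearest to Entpd5 1382434_at were Otud7b (distance 0.215), Carhsp1 (0.223), Tmcc3 (0.234 and 0.24 on separate probe sets), Dclk1 (0.235) and Gamt (0.239). The Entpd5 probe sets 1372774_at and 1382544_at lay at 0.224 and 0.496, and the median over all was 0.842. The nearest to Asph 1393345_at were Mtch2 (0.178), Phf21a (0.187), Hipk1 (0.188), Creb1 (0.191), Pias3 (0.193) and Fnbp4 (0.194). Asph 1382060_at lay at 0.579, close to the median of 0.585 over all probe sets, and Asph 1379884_at at 1.003.

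After centring on the saline arrays of the same tissue, which leaves the acrylamide pattern, the nearest to Entpd5 1382434_at was Asph 1393345_at (0.147), followed by S100a13 (0.157), the interferon-induced gene Ifi44l (0.16), Borcs7 (0.167), the quinone reductase gene Nqo1 (0.176) and the glutathione transferase gene Gstp1 (0.179). The other Entpd5 probe sets lay farther from 1382434_at than these genes, at 0.196 (1372774_at) and 0.247 (1382544_at). Asph 1382060_at lay at 0.545 and a flat profile at 0.363. The nearest to Asph 1393345_at were Pcif1 (0.11), Naa15 (0.116), Sirpa (0.125), Eeig2 (0.13), Borcs7 (0.131) and Rnd2 (0.131), with a flat profile at 0.281. Asph 1379884_at (0.385) and 1382060_at (0.476) lay farther than the flat profile. Both members were chosen on this contrast, so their nearness is a description.

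The genes of the pathways around both enzymes were then followed in 9 lists. Of 190 listed genes, 172 were on the arrays and 140 passed the filter in all 3 tissues. Limma with Benjamini-Hochberg adjustment called 0 of them on the average over tissues, where 2 of 15807 probe sets were called (0.0127%), the clock gene Nr1d1 and the unnamed 1371689_at, both given here after their values were seen. At an unadjusted p under 0.05 there were 3 list genes higher and 4 lower, beside 2.66% and 2.83% of all probe sets tested. It also called 0 of 146 list genes in the cerebellum, 0 of 152 in the cord and 0 of 155 in the nerve, beside 0%, 0% and 0.00551% of all probe sets tested. At an unadjusted p under 0.05 there were 0 higher and 4 lower in the cerebellum (1.3% and 1.44% of all probe sets tested), 3 and 3 in the cord (1.02% and 1.86%), and 4 and 1 in the nerve (2.72% and 2.38%).

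Nucleotidases related to ENTPD5 were few on the arrays above the filter. Of 5 tested on average, 4 had a positive and 1 a negative difference, with a median of 0.02. Over all 9127 genes the median was 0.002 and 51.0% were positive, the background for each list. Cant1, a calcium-activated nucleotidase of the secretory pathway, was at 0.20 ± 0.10 (SE), Entpd6, the closest relative of Entpd5, at 0.10 ± 0.09 and the cell surface enzyme gene Entpd2 at -0.12 ± 0.09. None of these had an unadjusted p under 0.05 in limma.

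The folding cycle that ENTPD5 serves had 11 of 14 genes with a positive average difference, with a median of 0.04, and 0 at an unadjusted p under 0.05 in limma. The oxidoreductase gene Pdia3 was at 0.09 ± 0.05 (SE), the chaperone gene Calr at 0.06 ± 0.04 and the cargo lectin gene Lman1 at -0.21 ± 0.15. Genes that build and transfer the oligosaccharide had 13 of 27 positive, a median of -0.008, and 1 higher and 1 lower at an unadjusted p under 0.05. These were Magt1, a subunit of the transferase complex (0.13 ± 0.05), and the mannosyltransferase gene Alg11 (-0.17 ± 0.06), while the catalytic subunit gene Stt3b was at -0.11 ± 0.05. Genes of UDP sugar supply and UMP had 9 of 13 positive and a median of 0.04. The genes with the smallest p were Ugdh, which oxidises UDP-glucose (0.10 ± 0.05), the UDP-N-acetylglucosamine transporter gene Slc35a3 (0.13 ± 0.10) and the uridine kinase gene Uck1 (0.07 ± 0.06), and 0 had an unadjusted p under 0.05. The plot of pathway genes sets the average differences of Entpd5 and Asph beside these genes. Since both were chosen on this contrast, no rank is read from it.

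**Figure D5:**
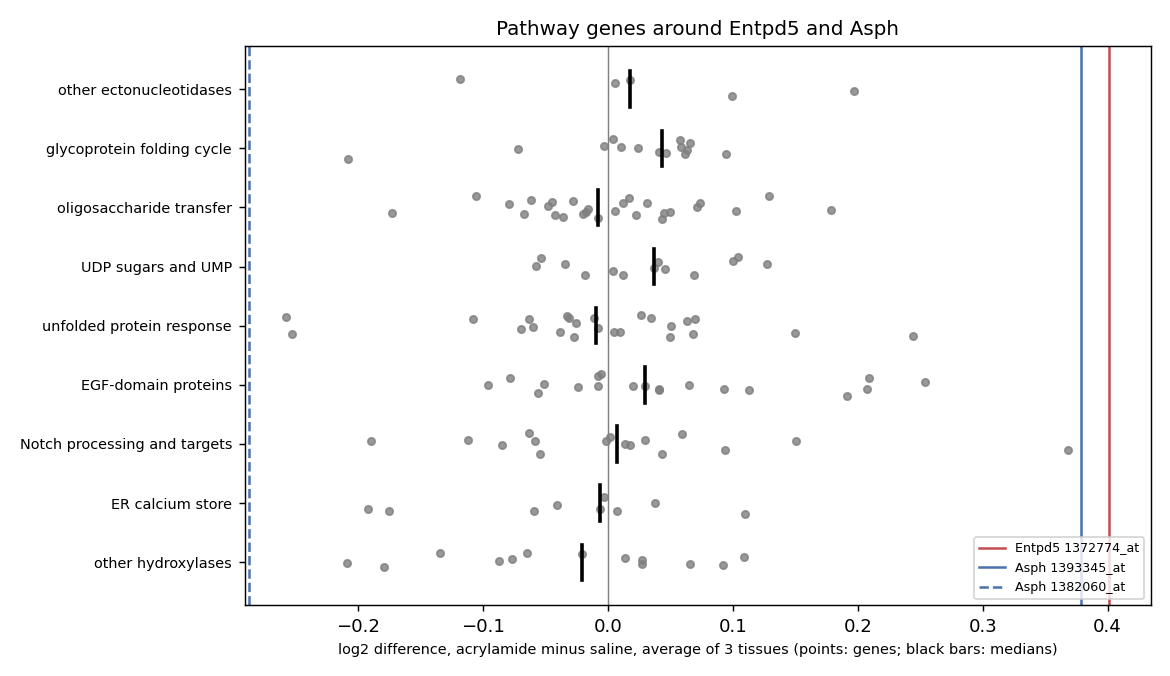
Average log2 difference over the 3 tissues, acrylamide minus saline (horizontal axis), of each pathway gene (points) in the 9 lists (rows), with list medians as black bars and the averages of Entpd5 1372774_at, Asph 1393345_at and Asph 1382060_at as vertical lines. List medians stay between -0.02 and 0.04, and the points run from -0.26 (Ppp1r15a) to 0.37 (Hes1).

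Genes of the unfolded protein response, the programme that raises chaperones when folding in the endoplasmic reticulum fails, had 11 of 24 with a positive average difference and a median of -0.01. The chaperone cofactor gene Sdf2l1 was at 0.24 ± 0.06 (SE), with an unadjusted p of 0.00366 in limma (adjusted p = 0.556). Its nerve signals were 362 and 389 in saline and 470.4 and 528 in acrylamide arrays, and its cord signals 610.05 and 682 and then 771 and 801. The cerebellar groups overlapped, with 528 and 519 and then 579 and 514 (0.06 ± 0.11). The stress kinase gene Eif2ak3 was at -0.25 ± 0.08 and the phosphatase subunit gene Ppp1r15a at -0.26 ± 0.09, both also under 0.05 unadjusted.

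Among genes around Asph, proteins with EGF-like domains had 11 of 19 with a positive average difference, a median of 0.03 and 0 at an unadjusted p under 0.05 in limma. The matrix gene Efemp2 was at 0.25 ± 0.14 (SE), the Notch receptor gene Notch3 at 0.19 ± 0.09 and the cadherin gene Fat1 at -0.10 ± 0.06. Genes of Notch processing and its targets had 9 of 16 positive and a median of 0.008. The Notch target gene Hes1, a transcriptional repressor, was at 0.37 ± 0.08, with an unadjusted p of 0.000847 in limma (adjusted p = 0.358). Its nerve signals were 487 and 596 in saline and 838 and 859 in acrylamide arrays, its cord signals 227 and 223 and then 279 and 273, and its cerebellar signals 150.2 and 127 and then 159.6 and 160.5. The coactivator gene Maml1 was at -0.19 ± 0.09 and the protease subunit gene Psen2 at 0.15 ± 0.10.

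Genes of the calcium store, the setting of junctin, had 3 of 9 with a positive average difference, a median of -0.007 and 0 at an unadjusted p under 0.05 in limma. The calcium release channel gene Ryr3 was at -0.19 ± 0.12 (SE), the calcium pump gene Atp2a3 at -0.18 ± 0.13 and the inositol trisphosphate receptor gene Itpr2 at -0.06 ± 0.10. By tissue, 2 of 13 tested genes of the list were positive in the cerebellum (median -0.09), 7 of 13 in the cord (0.02) and 11 of 16 in the nerve (0.07). Over all genes, 51.5%, 53.3% and 47.6% were positive in these tissues. The junctin partner Trdn, a muscle gene, had a signal of 289.7 on cord saline replicate 1 and of 1.8 or less on the other cord arrays, and Casq1, the calcium-binding protein of muscle, had 1140.5 and 127 or less on the same arrays. Other 2-oxoglutarate-dependent hydroxylases had 6 of 13 positive and a median of -0.02. The oxygen sensor gene Egln1 was at -0.14 ± 0.06, the only gene of the list at an unadjusted p under 0.05 (0.0485), beside P3h1 at -0.18 ± 0.10 and Tmlhe at -0.21 ± 0.12.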

How the data were processed

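Biotin-labelled cRNA of pooled tissue was measured on 1-colour Affymetrix arrays, per the labels' protocols. The authors deposited an intensity on a linear scale for every probe set, and the submitters' processing notes name GCOS 1.1. Its signal algorithm and scaling target: not given in the sources used here. The 2% trimmed mean of each array was 500.1 to 500.2, so arrays had been scaled as a whole. The 12 arrays fall into 6 groups by their titles. P-values measure the spread between pools of 2 rats. Those of an average over tissues treat the tissues as separate pools, and could be too small if the tissues came from the same rats.

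Values were analysed as log2(signal + 16) in limma 3.58.1 under R 4.3.3, with 1 mean per group and an intensity trend, leaving out 57 control probe sets. A probe set was tested where its mean over a tissue's arrays exceeded the 40th percentile (112), which left 21332 in the fit. Two-sided p-values were adjusted within each contrast (Benjamini-Hochberg, all probe sets tested) and called under 0.05. In lists, the probe set with the highest mean signal stood for its gene. Symbols were updated by gene ID through the GRCr8 table for 20758 of 20826 probe sets. The fit was tested on simulated data.

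The members, lists and tests were chosen with earlier results of these data known. Named genes were up to 3 per list with the smallest average p, and the 6 nearest probe sets per pattern. Alternatives were quantile and median scaling, pseudocounts of 1 and 64, no filter and a 60th percentile filter, no trend, a fit per tissue, replicate blocks, all arrays in tissue contrasts, the mean of all probe sets of a gene, and each array left out. Leaving out the 3 arrays with the most Acta1 was added after the data were seen. A further gene list is not reported here.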

Additional observations from a re-analysis of the deposited data

Results flagged for a closer look

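Asph probe set 1381046_at had both acrylamide arrays above both saline arrays in the cerebellum and both below them in the sciatic nerve, so the order of the groups was opposite in these tissues. The nerve signals lay below the filter on all 4 arrays and carry no fold change. The difference of differences, -0.64 ± 0.49 (SE) on the log2 scale, is given for completeness and was not tested.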

How the results depend on the processing

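Of 1093 member values under the alternatives, 1047 counted as the same. These were acrylamide differences that moved by less than their spread, and tissue differences that kept their sign and side of the threshold. Many of them could not move. With 1 mean per group, the filter, the trend, a fit per tissue and a replicate block leave the acrylamide difference of a tissue unchanged. So does leaving out an array of another tissue, and the count is therefore no measure of stability. As reversed counted 8, which for an acrylamide difference required a main value larger than its spread. Smaller differences could change sign without being counted as reversed. With an array left out, the average of Asph 1379884_at ran from -0.092 to 0.28. Entpd5 1382544_at in the cerebellum ran from -0.058 to 0.12. Entpd5 1382434_at in the nerve reversed without the 3 arrays with the most Acta1 (-0.038) and ran from 0.050 to 0.48 with an array left out. Its nerve minus cord difference turned to 0.0069 with median scaling and to 0.026 without nerve saline replicate 1. It ran from -0.40 to 0.026 with an array left out. With all arrays in tissue contrasts, which take in the contrast that chose the genes, this nerve minus cord difference was -0.37. That of Asph 1379884_at ran from -0.65 to 0.47 with an array left out and turned to 0.091 with median scaling, 0.098 with quantile normalization, 0.22 without the 3 arrays, 0.16 without nerve saline replicate 2 and 0.47 without cord saline replicate 1. Asph 1393345_at in the nerve ran from 0.14 to 0.36 with an array left out and was 0.33 without the 3 arrays. Its nerve minus cerebellum difference was -0.037 with median scaling and -0.25 with no trend, and ran from -0.29 to -0.21 with an array left out. The causes were not tested.

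Probe sets called on the average of tissues, 2, numbered 1 with the 60th percentile filter, 1 with no trend, 4 with quantile normalization, 0 to 35 with an array left out and 934 without the 3 arrays, where 3 groups have a single array assumed to vary like the others. In the cerebellum (0) they numbered 1 in a fit of that tissue alone, 2 without the 3 arrays and 0 to 2 with an array left out. In the nerve (1) they numbered 0 in its own fit, 2 with no filter, with a pseudocount of 64 and with quantile normalization, 0 to 21 with an array left out and 1119 without the 3 arrays. In the cord (0) they numbered 0 to 1. Pathway genes called (0) changed only without the 3 arrays, on average and in the nerve. The nerve there is saline replicate 2 against acrylamide replicate 1, with cerebellar neuron sums of 1168 and 15699.6. Acrylamide and these markers cannot be told apart in it, so calls of that setting are not read as acrylamide responses. Its nerve differences were 1.60 for Itpr1, 1.37 for Ryr2 and -0.66 for Hey1. Its averages were -0.19 for Fat1, 0.37 for Fbn1, 0.44 for Ryr2 and 0.64 for Itpr1.

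Replicate numbers are shared between groups. Same-numbered saline and acrylamide arrays deviated with correlations of 0.06 in the cerebellum, -0.06 in the cord and 0.42 in the nerve, where both replicate 1 arrays also had the higher cerebellar neuron sums. With 2 pairs per tissue and these values, the numbers were not taken as a pairing. With a replicate block within or over tissues, 6 probe sets were called on average, and in the nerve 0 with the block within tissues. With the block within tissues, Entpd5 1372774_at did not pass between nerve and cord (-0.26, limma adjusted p = 0.0677). No other member call changed with a block.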

Other observations

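Asph was 1 of 2 genes with a probe set above in all 3 tissues and another below in all 3. The other, named after its values were seen, was Vezf1, a zinc finger transcription factor gene, with log2 differences of 0.11, 0.26 and 0.06 in the cerebellum, cord and nerve on 1393784_at and of -0.08, -0.24 and -0.10 on 1376594_at.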
